A study of Homo sapiens with 24 samples.

Results

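The genes that take glucose to pyruvate, turn pyruvate into lactate or let it into the mitochondrion were followed across all 8 groups of a rotenone experiment in human neurons. They number 36 and were chosen by function, with earlier results of these data known. They are genes of glucose uptake, glycolysis, lactate exchange, the pyruvate dehydrogenase complex and its regulators, and were found on the arrays through the RefSeq accession given with each probe. Of the 36 genes, 35 had a matching probe among the 21239 genes tested. ALDOA, the aldolase of muscle and most dividing cells, had no probe with a matching accession and was not analysed here. Of the 35 genes, 24 were read by 1 probe and 11 by 2 probes, which were averaged.

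Glycolysis splits glucose into pyruvate in the cytosol and yields ATP without oxygen. Lactate dehydrogenase then reduces pyruvate to lactate, which leaves the cell through monocarboxylate carriers, or pyruvate enters the mitochondrion through its own carrier and is oxidized by pyruvate dehydrogenase, an enzyme that kinases (PDK) switch off and phosphatases (PDP) switch on. Rotenone blocks complex I of the respiratory chain, and cells whose respiration is blocked are known to depend on glycolysis for ATP.

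The cells were LUHMES, a single line of human mesencephalic neuronal precursors immortalised with a tetracycline-controlled v-myc gene, grown as shaken 3D aggregates in differentiation medium with cAMP, GDNF, N2 and tetracycline. Rotenone in DMSO was added on day 7 of differentiation at 50 nM for 12 h, 50 nM for 24 h or 100 nM for 24 h, and controls received DMSO in the amount of the 100 nM dose. Aggregates were collected either directly (day 8) or 7 days after the compound had been washed out (day 15). Each of the 8 groups held 3 arrays, all from separate wells of the 1 line and each on its own slide. The p-values therefore measured the spread between wells together with what the batch correction left between slides, and both may be technical. The same 3 DMSO arrays served all comparisons of a day, and the comparisons of that day are therefore not independent of each other. The scan name of day 15 DMSO replicate 1 does not name DMSO, so its group rests on its label alone, and all comparisons with day 15 DMSO use it.

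Values are log2 normalized intensities, on which a difference of 1 is a 2-fold change, and levels are compared only within a gene. A gene was counted as changed where limma's Benjamini-Hochberg adjusted p, over all genes tested, was under 0.05. Where arrays of groups are said to lie apart, the share of all genes whose arrays do so was not counted, so the separation describes that gene only. The replicate numbers were also the slide numbers. Slide 1, which the labels mark as a repeat in need of batch correction, was the brightest: 64.4 to 80.5% of its spots exceeded background clearly, while slide 2 had 50.5 to 57.5% and slide 3 had 48.1 to 60.3% of such spots. All 10 neuronal markers were well above background in all groups. On the 3 day 8 DMSO arrays, 6 of 8 dopaminergic markers were so on every array and SLC18A2, the vesicular monoamine transporter, on none. There, 4 of 6 neural progenitor markers were also above background on every array, with SOX2 and HES1 on none, and 1 of 7 astrocyte markers was, with GFAP and AQP4 on none. So were 3 of the 4 oligodendrocyte markers measured and 2 of the 5 microglial markers measured, with CX3CR1 on none.

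On day 8, rotenone changed few of these genes. PFKP, the platelet-type phosphofructokinase, rose in all 3 rotenone groups, by 1.49- to 1.65-fold, and ALDOC, the brain aldolase, rose 1.5- to 1.56-fold after 24 h but not after 12 h. The pyruvate dehydrogenase phosphatase PDP1 fell in all 3 groups and the kinase PDK2 fell after 24 h at both doses. Textbook glycolytic genes such as LDHA, PGK1, ENO1 and PKM did not pass the test in any rotenone group.

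With 100 nM for 24 h, 2 of the 35 genes rose (ALDOC and PFKP), where 4.07% of all genes did, and 2 fell (PDK2 and PDP1), where 5.41% of all genes did. These 2 and 2 genes make 5.71% of the 35 in each direction, near the share of all genes. A change over 1.5-fold was found for 3 of the 35 (ALDOC, PDP1 and PFKP), against 3.45% of all genes. The median log2 change was 0.07 over the 35 genes and -0.02 over all genes. With 50 nM for 24 h, 5 rose (ALDOC, GPI, PDHA1, PDK4 and PFKP), against 3.66% of all genes, and 2 fell (PDK2 and PDP1), against 4.36%, while 2 of the 35 (PDK4 and PFKP) changed over 1.5-fold, against 2.8% of all genes. With 50 nM for 12 h, PFKP rose (2.66% of all genes did) and PDP1 fell (2.85% of all genes did), and none of the 35 passed the test with a change over 1.5-fold, against 1.75% of all genes. Since RNA of whole aggregates was measured, fewer cells of a type and less RNA per cell cannot be told apart in any of these values. The summed intensity of the 10 neuronal markers was 273000 to 316000 on the DMSO arrays and 267000 to 271000 with 100 nM, and 3 of them (MAP2, ELAVL4 and SNAP25) fell. That of 6 neural progenitor markers was 16200 to 20300 with DMSO and 23000 to 26300 with 100 nM, with 1 of them (VIM) higher past the test and SOX2 and HES1 not well above background. The part of these markers in the results was not tested. None of the 8 cycling-cell markers passed the test in any of the 3 rotenone groups.

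**Figure D1:**
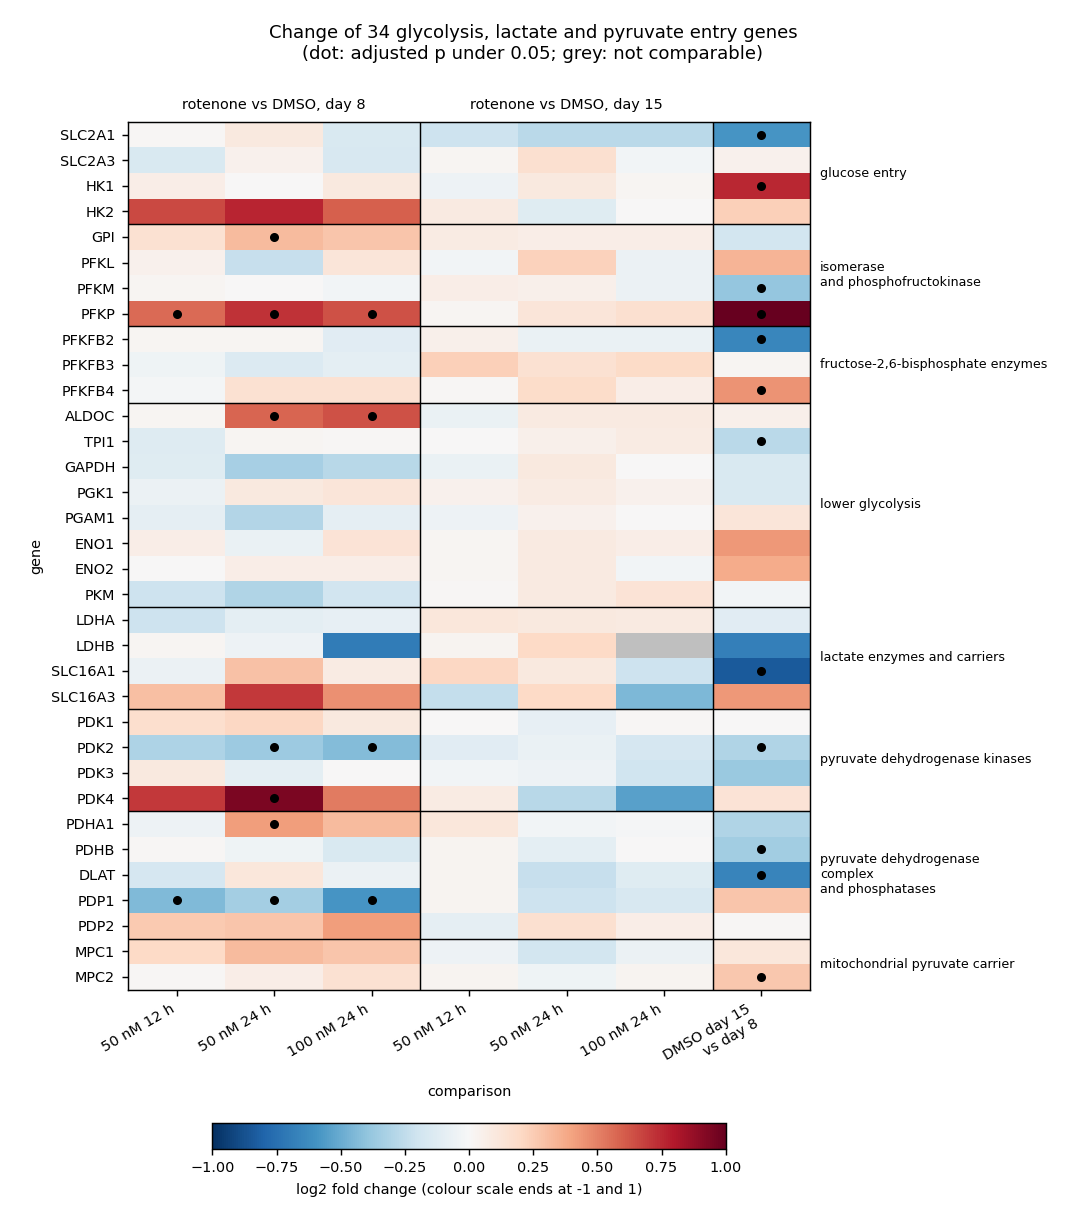
Log2 fold changes of 34 of the 35 measured genes (rows, grouped by role; PFKFB1 left out) in the 3 rotenone groups against DMSO on day 8, the same on day 15, and in DMSO on day 15 against day 8 (columns). Colour gives the log2 fold change, cut at -1 and 1 (PFKP between the days, at 1.67, lies beyond it), grey marks LDHB with 100 nM on day 15, which is not comparable, and dots mark an adjusted p under 0.05: 4, 7 and 2 genes with 100 nM 24 h, 50 nM 24 h and 50 nM 12 h on day 8, none with rotenone on day 15, and 12 between the days.

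The first steps are glucose uptake by the GLUT carriers and phosphorylation by hexokinase. SLC2A1 (GLUT1), SLC2A3 (the neuronal GLUT3) and HK1 did not pass the test on day 8, with log2 changes between -0.16 and 0.1 in the 3 rotenone groups. HK2, the inducible hexokinase, had the largest change in this group of genes without passing. Its levels were 4.2, 4.4 and 3.99 with DMSO, 4.64, 5.06 and 4.87 with 50 nM for 12 h, 5.11, 4.74 and 5.04 with 50 nM for 24 h, and 5.24, 4.6 and 4.55 with 100 nM. All 9 rotenone arrays lay above the 3 DMSO arrays, and the log2 changes were 0.66, 0.76 and 0.6 (SE 0.28), with adjusted p = 0.216, 0.109 and 0.225. The mean is that of 2 unequal probes: A_33_P3214670 was well above background on 2 of 24 arrays, none of them from day 8, and A_32_P175739, which was so on all 24, changed by 0.24, 0.61 and 0.23 (SE 0.26). On A_32_P175739 alone the separation was lost. Its DMSO values were 5.94, 5.9 and 5.79, against 5.7 on 12 h replicate 1 and 5.75 on 100 nM replicate 3. Only the arrays of 50 nM for 24 h (6.44, 6.64 and 6.37) all lay above DMSO on that probe.

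PFKP is 1 of 3 phosphofructokinases, the enzyme that commits sugar to glycolysis. Its levels on day 8 were 7.02, 7.29 and 7.25 with DMSO, 7.81, 7.73 and 7.73 with 50 nM for 12 h, 7.99, 7.82 and 7.92 with 50 nM for 24 h, and 7.99, 7.68 and 7.79 with 100 nM. Every rotenone array lay above every DMSO array. The log2 changes were 0.57, 0.72 and 0.64 (SE 0.12), with adjusted p = 0.00602, 0.000622 and 0.00141. Within slides 1, 2 and 3, before the batch correction, the change with 100 nM was 1, 0.38 and 0.54. Both PFKP probes rose with 100 nM, by 0.68 and 0.59 (SE 0.13). The muscle (PFKM) and liver (PFKL) forms had log2 changes between -0.23 and 0.12 on day 8 and did not pass. The rise of PFKP with 100 nM remained past the test under 16 of 17 alternatives, and was lost with slides 2 and 3 alone (adjusted p = 0.094).

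GPI, which turns glucose 6-phosphate into fructose 6-phosphate, was called only at 50 nM for 24 h. Its levels were 12.51, 12.62 and 12.37 with DMSO and 12.7, 12.97 and 12.79 with 50 nM for 24 h, a log2 change of 0.32 (SE 0.09, adjusted p = 0.0376). With 100 nM they were 12.73, 12.86 and 12.73, a log2 change of 0.28 (adjusted p = 0.0732). With 50 nM for 12 h they were 12.69, 12.75 and 12.51 and overlapped those of DMSO. The change between the doses was -0.05 (95% confidence interval -0.24 to 0.15), so that the call at 1 dose and not at the other does not show a difference between doses. The 4 PFKFB enzymes, which set the level of fructose 2,6-bisphosphate, the activator of phosphofructokinase, did not pass the test in any rotenone group of day 8. PFKFB1 was well above background on 5 of 24 arrays only and is given no fold and left out of the plots of fold changes.

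ALDOC cleaves fructose 1,6-bisphosphate, and was the only 1 of the 8 measured genes of lower glycolysis that passed the test with rotenone. Its levels were 8.94, 8.59 and 8.78 with DMSO, 8.86, 8.71 and 8.82 with 50 nM for 12 h, 9.18, 9.58 and 9.3 with 50 nM for 24 h, and 9.51, 9.39 and 9.33 with 100 nM. The 12 h arrays lay within the range of DMSO and all 6 arrays of 24 h lay above it. The log2 changes were 0.02, 0.58 and 0.64 (SE 0.12), with adjusted p = 0.967, 0.00386 and 0.00142. ALDOC was also the only 1 of the 35 genes that differed between 24 h and 12 h of 50 nM in the fit without a replicate block, with a log2 difference of 0.56 (SE 0.12, adjusted p = 0.0342), where 0.537% of all genes differed. With the replicate block PDHA1 passed as well, at an adjusted p that rounds to 0.05, with differences of 0.55, 0.55 and 0.27 within slides 1, 2 and 3. The ALDOC call between the times, in the fit without the block, was lost without replicate 1 or 2 of the 12 h group and without replicate 2 or 3 of the 24 h group. This left 0 of the 35 genes each time. It was also lost with slides 2 and 3 alone.

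The remaining genes of lower glycolysis had small changes. TPI1, PGK1, ENO1 and ENO2 had log2 changes between -0.13 and 0.14 in the 3 rotenone groups of day 8. GAPDH, often used as a reference gene, stood at 15.06, 14.81 and 14.91 with DMSO and at 14.54, 14.71 and 14.55 with 50 nM for 24 h, a log2 change of -0.33 (SE 0.14, adjusted p = 0.191). PGAM1 changed by -0.29 (SE 0.1, adjusted p = 0.0797) with the same treatment. PKM, the last enzyme of the pathway, changed by -0.21, -0.3 and -0.19 with 50 nM for 12 h, 50 nM for 24 h and 100 nM, and its SE of 0.25 was the widest among these genes.

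**Figure D2:**
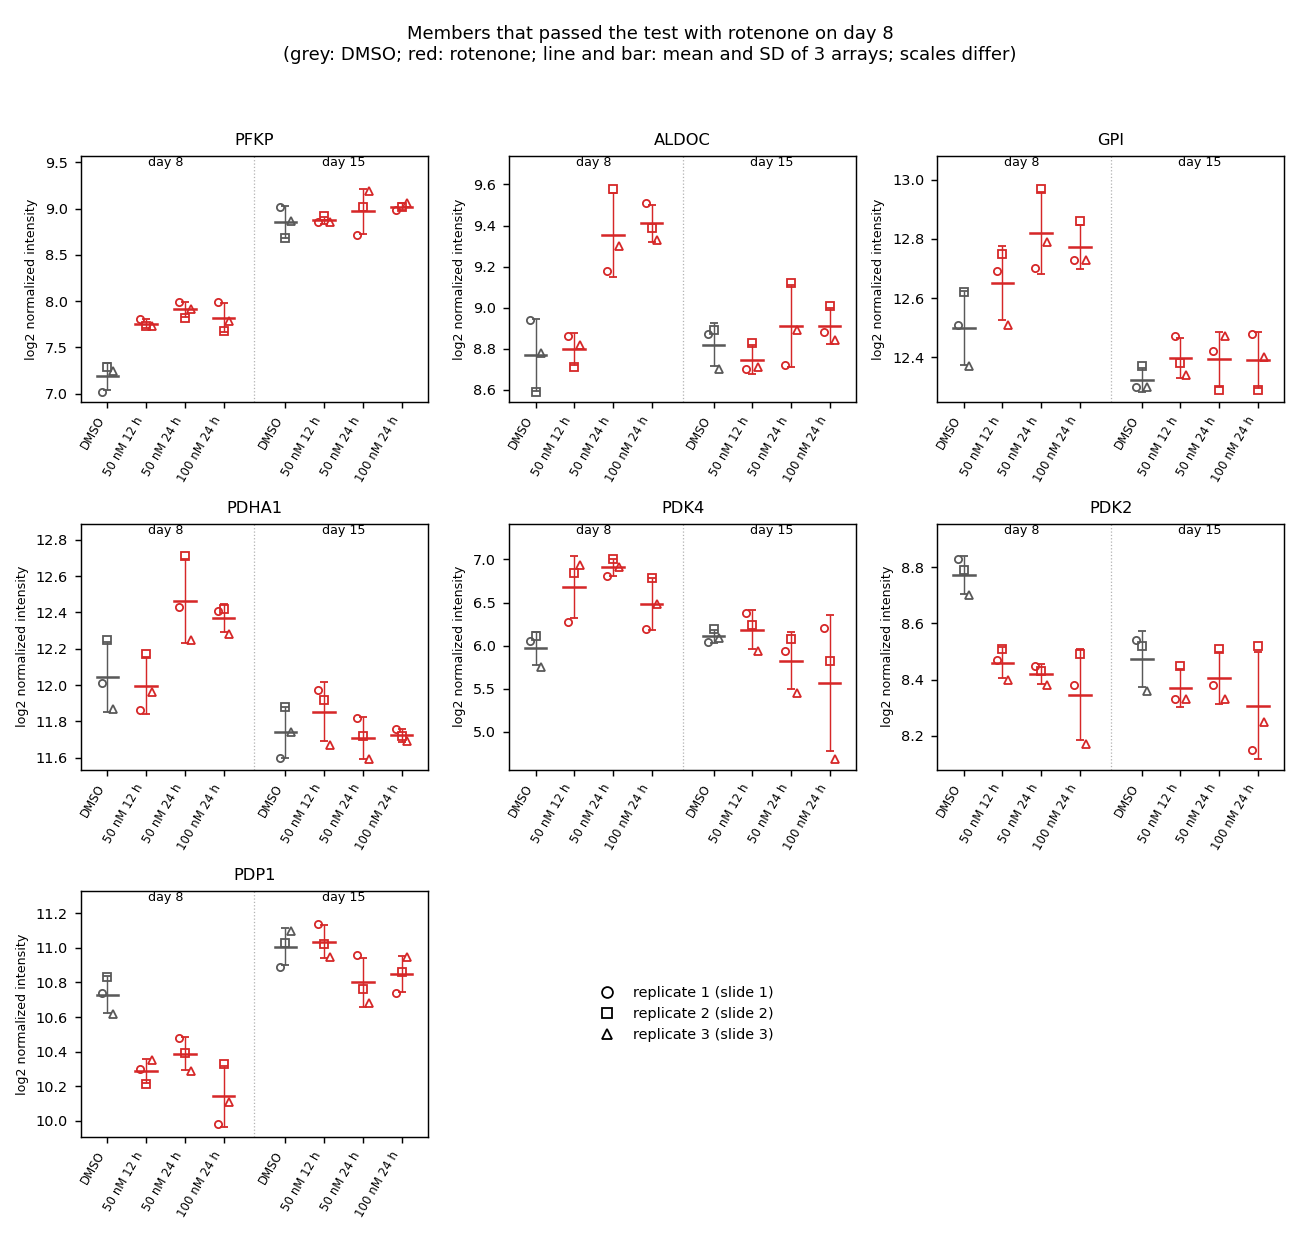
Log2 normalized intensity of the 7 genes that passed the test with rotenone on day 8, for each array of the 8 groups. Marks give the replicate, which is also the slide, and lines and bars give the mean and SD of 3 arrays. PFKP, ALDOC, GPI, PDHA1 and PDK4 lay higher and PDK2 and PDP1 lower in the called groups of day 8, and on day 15 no rotenone group differed from DMSO past the test.

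Among the lactate genes none passed the test on day 8. SLC16A3 (MCT4), the lactate exporter of glycolytic cells, came closest: its levels were 11.23, 11.05 and 11.47 with DMSO, 11.42, 11.63 and 11.6 with 50 nM for 12 h, 11.78, 11.92 and 12.18 with 50 nM for 24 h, and had a mean of 11.71 (SD 0.21, n = 3) with 100 nM. All 6 arrays of 24 h lay above those of DMSO. The log2 change with 50 nM for 24 h was 0.71 (SE 0.22), with an adjusted p of 0.05001, just over the threshold, and it passed with the replicate block. SLC16A1 (MCT1), the carrier shared by many cell types, changed by 0.29 (SE 0.19, adjusted p = 0.45) with that treatment. LDHA, the lactate dehydrogenase of glycolytic tissues, changed by -0.21, -0.1 and -0.08 with 50 nM for 12 h, 50 nM for 24 h and 100 nM (SE 0.1).

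LDHB, the dehydrogenase subunit of heart and neurons, changed by -0.7 with 100 nM (SE 0.35, adjusted p = 0.274), and its 2 probes differed. The brighter probe, A_23_P53476, stood at 15.41, 15.34 and 15.21 with DMSO and at 15, 15.3 and 15.19 with 100 nM, a change of -0.16 (SE 0.16). The other, A_33_P3231432, stood at 12.03, 12.55 and 12.34 with DMSO and at 11.73, 10.08 and 11.36 with 100 nM, all 3 below DMSO and replicate 2 far below, a change of -1.25 (SE 0.35, adjusted p = 0.048 over all 48316 probes). Fitting each probe by itself was chosen after the data had been seen. On day 15 the second probe was set missing on 100 nM replicate 1, where the outlier flag removed it, so that LDHB stood at 14.89 there against 13.05 and 12.82 on the other arrays, and the LDHB values of 100 nM on day 15 are not comparable with the rest. The SD of that group was 1.14, against 0.03 to 0.37 in the other 7, and it enters the SE of every LDHB comparison in the fit of all arrays. With only the groups compared, the adjusted p with 100 nM on day 8 was 0.098 (SE 0.19).

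**Figure D3:**
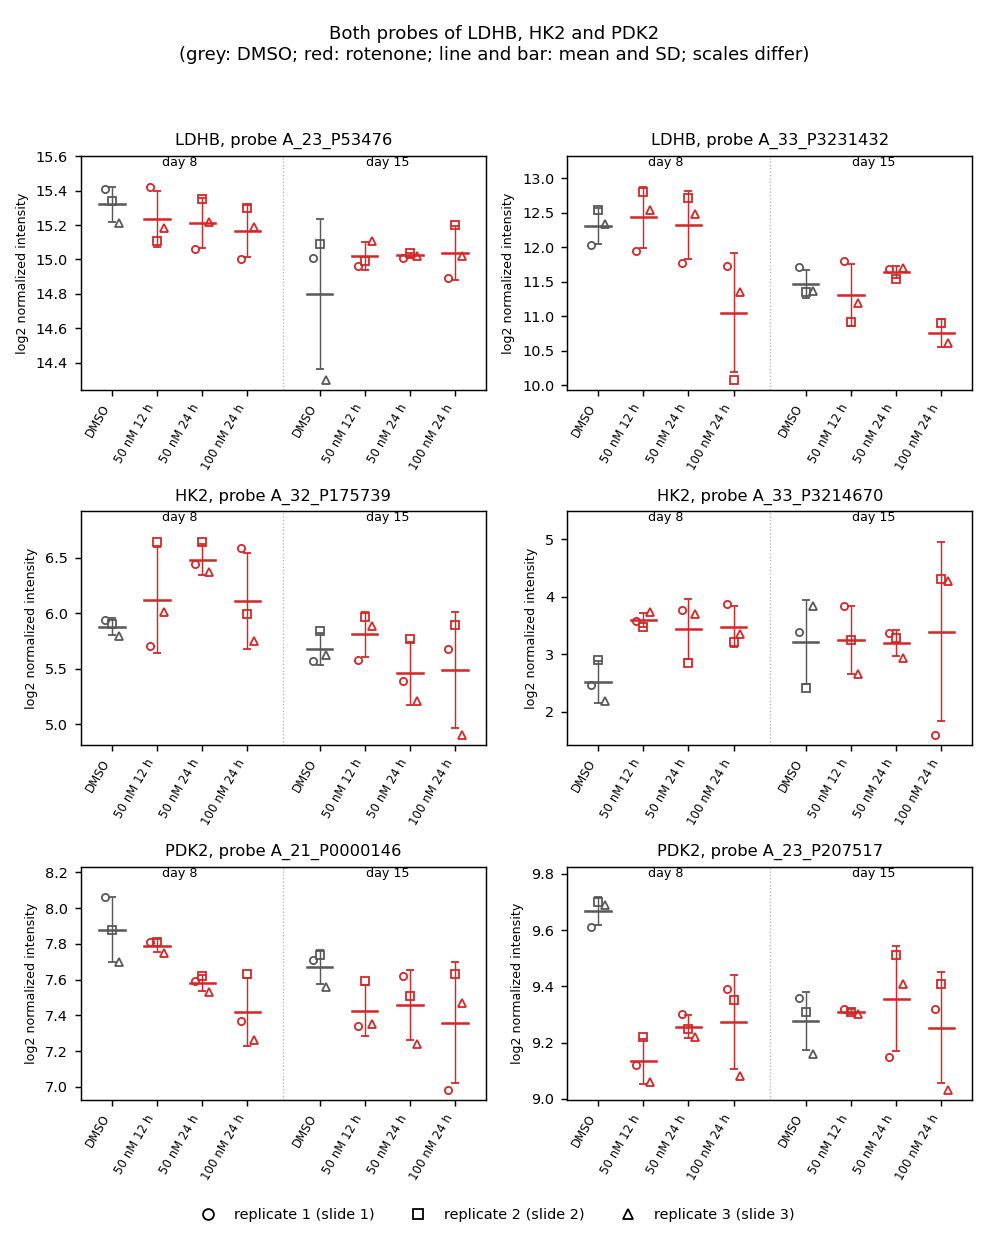
Log2 normalized intensity of each probe of LDHB, HK2 and PDK2 by array, with the mean and SD of the arrays of a group (n = 3, and n = 2 for LDHB probe A_33_P3231432 with 100 nM on day 15). With 100 nM on day 8, LDHB fell past the test on probe A_33_P3231432 only, while the means of both PDK2 probes lay below DMSO in all 3 rotenone groups of day 8.

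At the entry of pyruvate into the mitochondrion, a kinase and a phosphatase with opposite actions fell together. PDK2, a pyruvate dehydrogenase kinase expressed in most tissues, stood at 8.83, 8.79 and 8.7 with DMSO, 8.47, 8.51 and 8.4 with 50 nM for 12 h, 8.45, 8.43 and 8.38 with 50 nM for 24 h, and 8.38, 8.49 and 8.17 with 100 nM. All 9 rotenone arrays lay below the 3 DMSO arrays. The log2 changes were -0.31, -0.36 and -0.43 (SE 0.1), with adjusted p = 0.0767, 0.032 and 0.00893. Its 2 probes changed alike with 100 nM, by -0.46 and -0.4, and unlike each other after 12 h, by -0.09 and -0.54. Fitted by itself, neither probe passed with 100 nM (adjusted p = 0.11 and 0.069 over all probes) or with 50 nM for 24 h (0.42 and 0.066). After 12 h, where the mean did not pass, probe A_23_P207517 did (0.018). With the replicate block the 12 h change of the mean passed as well (adjusted p = 0.028). Leaving out replicate 3 of the 100 nM group took the adjusted p at that dose to 0.063. The other kinases, PDK1 and PDK3, had log2 changes between -0.1 and 0.21.

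PDP1, the phosphatase that reactivates the complex, stood at 10.74, 10.83 and 10.62 with DMSO, 10.3, 10.21 and 10.35 with 50 nM for 12 h, 10.48, 10.39 and 10.29 with 50 nM for 24 h, and 9.98, 10.33 and 10.11 with 100 nM. Every rotenone array lay below every DMSO array. The log2 changes were -0.44, -0.34 and -0.59 (SE 0.1), with adjusted p = 0.0139, 0.0473 and 0.000989. With the replicate block the call at 50 nM for 24 h was lost (adjusted p = 0.065), and without DMSO replicate 2 or without replicate 2 of the 12 h group that at 12 h was lost (adjusted p = 0.073 and 0.067). PDP2, the other phosphatase, changed by 0.26, 0.28 and 0.42 (SE 0.23) and did not pass.

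PDK4, the kinase induced by fasting and fatty acids, stood at 6.05, 6.11 and 5.75 with DMSO, 6.27, 6.84 and 6.93 with 50 nM for 12 h, 6.81, 7 and 6.91 with 50 nM for 24 h, and 6.19, 6.79 and 6.48 with 100 nM. All 9 rotenone arrays lay above DMSO. The log2 changes were 0.71, 0.94 and 0.52 (SE 0.28), with adjusted p = 0.177, 0.0475 and 0.323, and the change from 50 to 100 nM was -0.41 (95% confidence interval -1.01 to 0.18). PDHA1, the subunit of pyruvate dehydrogenase that the kinases phosphorylate, stood at 12.01, 12.25 and 11.87 with DMSO, 12.43, 12.71 and 12.25 with 50 nM for 24 h and 12.41, 12.42 and 12.28 with 100 nM. Its log2 changes were 0.42 and 0.32 (SE 0.13), with adjusted p = 0.0472 and 0.13, while with 50 nM for 12 h it changed by -0.05. PDHB and DLAT, the further subunits of the complex, did not pass on day 8.

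Both subunits of the mitochondrial pyruvate carrier were measured. MPC1 changed by 0.2, 0.32 and 0.28 (SE 0.11), with adjusted p = 0.354, 0.0761 and 0.121, and passed with 50 nM for 24 h where the brighter of its probes was used alone. MPC2 had log2 changes of 0.01, 0.07 and 0.15 (SE 0.08).

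Of the 7 calls with 50 nM for 24 h, those of GPI, PDHA1, PDK2, PDK4 and PDP1 had adjusted p between 0.032 and 0.0475 and depended on single arrays. Without DMSO replicate 1, 2 or 3 the count was 2, 4 and 2, and without replicate 1, 2 or 3 of the treated group it was 3 each time, with ALDOC and PFKP called in all 6. Scaling each array to its 75th percentile instead of quantiles gave 7 genes higher and 1 lower with 50 nM for 24 h, 4 and 2 with 100 nM, and 2 and 1 with 50 nM for 12 h. The 2 doses at 24 h did not differ past the test for any of the 35 genes, nor for any gene on the array (0% of all genes, limma). At an unadjusted p under 0.05, 3 of the 35 did (PDP1, PFKL and SLC2A1), against 4.17% of all genes.

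Promoters of genes that moved are shown where their window held ACGTG. The letters were searched because glycolytic genes are textbook targets of hypoxia-inducible factors, which bind ACGTG and GCGTG, and of E-box factors, which bind CACGTG. RefSeq sequences of GRCh38.p14 covering the 250 bases before a transcript start were found for 32 of the 36 genes. Capitals mark ACGTG, or CACGT where it lies on the other strand, and the 2 overlap in CACGTG. The ALDOC window, chr17:28576896-28577145 on the minus strand, is given whole and 30 bases around a match for the others. PFKP, with 4 listed starts, is shown at chr10:3069038-3069067 on the plus strand, GPI at chr19:34364818-34364847 on the plus strand and PDK2 at chr17:50095210-50095239 on the plus strand. Of the genes that did not pass the test, HK2 is shown at chr2:74834067-74834096, LDHA at chr11:18394366-18394395 and PGK1 at chrX:78104034-78104063, all on the plus strand.
ALDOC: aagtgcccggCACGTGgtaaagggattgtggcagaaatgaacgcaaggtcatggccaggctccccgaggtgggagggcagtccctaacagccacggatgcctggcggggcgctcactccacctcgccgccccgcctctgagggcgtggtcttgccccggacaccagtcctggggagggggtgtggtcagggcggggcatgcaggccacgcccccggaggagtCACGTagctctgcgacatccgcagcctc
PFKP: ccacgagcgcctACGTGatgcccggcccgt
GPI: acactgcctgtaACGTGgaaggtgttcgat
PDK2: cccgggggaagcCACGTGccggggcggaag
HK2: aatgggcgtgcgCACGTcactgatccggag
LDHA: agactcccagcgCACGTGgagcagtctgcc
PGK1: gcggcgtgccggACGTGacaaacggaagcc

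On either strand, ACGTG was found in 22 of the 63 windows of these genes (34.9%) and in 18.5% of all 35116 windows. GCGTG was found in 31.7% of their windows and 32.2% of all, and CACGTG in 14.3% and 6.34%. Of the 6 genes called with rotenone that had a window, 4 held ACGTG (ALDOC, GPI, PDK2 and PFKP), as did 14 of the 25 tested genes that were not called. PDHA1 and PDK4, also called, held no ACGTG and are not shown, and PDP1 had no window. The match thus stood both in genes that rose and in a gene that fell, and in LDHA and PGK1, which did not pass. These are letters in a window, and no binding was measured.

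Beyond these genes, 84 of 87 listed genes of neighbouring pathways were measured. With 100 nM on day 8, 4 of them rose and 4 fell, where 4.07% of all genes rose and 5.41% fell. Both directions together made 9.52% of these genes, near the 9.48% of all genes. PYGL and PGM1, which release glucose 1-phosphate from glycogen and pass it to glycolysis, rose by 0.78 (SE 0.11) and 0.64 (SE 0.1), with adjusted p = 0.00016 and 0.00039, and MLXIP (MondoA), a glucose-sensing transcription factor, rose by 0.59 (SE 0.11, adjusted p = 0.0015). TXNIP, which restrains glucose uptake, and ARRDC4, its relative, both known targets of MondoA, had the largest falls of these lists, by -2.57 (SE 0.15) and -2.11 (SE 0.13), with adjusted p = 9.8e-09 and 1.2e-08. TXNIP changed by -2.62 after 12 h and -2.33 after 24 h of 50 nM, and ARRDC4 by -2.02 and -1.69. TIGAR, which lowers fructose 2,6-bisphosphate, had a log2 change of -1.06 (SE 0.14, adjusted p = 7e-05). EPAS1, a hypoxia-inducible factor, changed by -0.8 (SE 0.25) and was well above background on 1 of the 3 arrays with 100 nM. In the pentose phosphate pathway 1 of 10 genes rose (RPIA, by 0.33) and 1 fell (TIGAR), and none of the 14 genes of the tricarboxylic acid cycle passed with 100 nM.

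On day 15, after wash-out, none of the 35 genes passed the test in any rotenone group against DMSO, and neither did any other gene (0% of all genes in each of the 3 comparisons, limma). At an unadjusted p under 0.05, SLC2A1 alone of the 35 differed with 100 nM (7.21% of all genes did), DLAT and SLC2A1 with 50 nM for 24 h (3.28%), and PFKFB3 and SLC2A1 with 50 nM for 12 h (3.47%). SLC2A1, the main glucose carrier of dividing cells and of the blood-brain barrier, stood at 7.82, 7.91 and 7.98 with DMSO, 7.71, 7.78 and 7.58 with 50 nM for 12 h, 7.65, 7.69 and 7.55 with 50 nM for 24 h, and 7.54, 7.7 and 7.67 with 100 nM. All 9 rotenone arrays lay below the 3 DMSO arrays, which the 3 comparisons share. The gene was picked out here after its values had been seen, and how many of all genes separate in this way was not counted. The log2 changes were -0.21, -0.27 and -0.27 (SE 0.1), with adjusted p = 1, 1 and 0.629.

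Of the 7 genes called on day 8, none passed the test on day 15. With 100 nM, PFKP stood at 8.98, 9.02 and 9.06 against 9.02, 8.68 and 8.87 with DMSO, a log2 change of 0.16 (95% confidence interval -0.08 to 0.41). ALDOC changed by 0.09 (-0.16 to 0.34), PDP1 by -0.16 (-0.38 to 0.06), PDK2 by -0.17 (-0.37 to 0.04), GPI by 0.07 (-0.12 to 0.27) and PDHA1 by -0.01 (-0.28 to 0.25). PDK4 had the largest change of the 35 in this comparison, -0.54 (-1.13 to 0.05, adjusted p = 0.712), below DMSO where it had been above it on day 8. It stood at 6.2, 5.82 and 4.68 against 6.04, 6.19 and 6.09, and the array of its lowest value, replicate 3, had the largest residual spread of all 24. Whether the effect of 100 nM differed between the days was tested as an interaction: none of the 35 genes passed, against 2.44% of all genes, and 7 had an unadjusted p under 0.05 (ALDOC, LDHB, MPC1, PDK4, PDP1, PFKP and SLC16A3), against 14.4% of all genes. That of LDHB rests on the array with the missing probe: fitted by themselves, its probes gave interactions of 0.4 (unadjusted p = 0.1) and 0.54 (unadjusted p = 0.31). The interaction of ALDOC was -0.55 on the log2 scale (SE 0.17, adjusted p = 0.0932), that of SLC16A3 was -0.91 (SE 0.3, adjusted p = 0.139), that of PDP1 was 0.43 (SE 0.15, adjusted p = 0.146) and that of PFKP was -0.48 (SE 0.16, adjusted p = 0.156). In the main fit, the effect of 100 nM is therefore not shown to differ between the days for any of the 35 genes. A call on day 8 without one on day 15 does not by itself show such a difference. Among the alternatives, the interaction passed for ALDOC with 3 of them and for PDK4 and SLC16A3 with the authors' normalized values. Of these 3 genes only ALDOC had been called with 100 nM on day 8.

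More of these genes passed the test between the days than with rotenone, as did more of all genes. Between the days 34.3% of the 35 genes and 23.2% of all genes passed. On day 8 the shares were 11.4% and 9.48% with 100 nM, 20% and 8.02% with 50 nM for 24 h, and 5.71% and 5.52% with 50 nM for 12 h. Between DMSO on day 8 and on day 15, 4 of the 35 rose (HK1, MPC2, PFKFB4 and PFKP), against 10.1% of all genes, and 8 fell (DLAT, PDHB, PDK2, PFKFB2, PFKM, SLC16A1, SLC2A1 and TPI1), against 13.2%. A change over 1.5-fold was found for 6 of the 35, against 12.2% of all genes. With arrays scaled to their 75th percentile, 3 rose and 11 fell. Several marker lists moved over the same days. The summed intensity of the 8 cycling-cell markers was 1890 to 3140 on day 8 and 1290 to 1440 on day 15, and 7 of them fell. That of the 8 dopaminergic markers was 1380 to 1420 and then 573 to 660, with 2 lower (TH and SLC6A3) and 3 higher. Such a sum is set mostly by its brightest markers, and the median log2 change of these 8 was 0.12. The sum of the 4 oligodendrocyte markers measured was 718 to 799 and then 142 to 165, with 1 lower (OLIG2) and a median log2 change of 0.11. The neuronal sum was 273000 to 316000 and then 313000 to 352000, with 3 higher and 1 lower. The progenitor sum was 16200 to 20300 and then 26500 to 30600, with 1 higher (VIM) and a median log2 change of 0.1. The part of these markers in the changes was not tested, and the age of the aggregates and the time since the vehicle was added cannot be told apart.

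PFKP had the largest change of the 35 between days. It stood at 7.02, 7.29 and 7.25 on day 8 and at 9.02, 8.68 and 8.87 on day 15, a 3.19-fold rise (log2 1.67, SE 0.12, adjusted p = 3.8e-09), with both probes rising, by 1.71 and 1.63. PFKM, the muscle form, fell meanwhile from 12.85, 12.88 and 12.79 to 12.5, 12.41 and 12.45 (log2 -0.39, SE 0.08, adjusted p = 0.00179). HK1, the hexokinase bound to mitochondria in neurons, rose from 11.14, 11.09 and 11.08 to 11.95, 11.96 and 11.65 (log2 0.75, SE 0.11, adjusted p = 2.9e-05). No array of 1 day overlapped those of the other for these 3 genes.

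Of the carriers, SLC16A1 and SLC2A1 fell, MPC2 rose and the others did not pass the test. SLC16A1 went from 7.32, 7.44 and 7.17 to 6.17, 6.61 and 6.63 (log2 -0.84, SE 0.19, adjusted p = 0.00264) and SLC2A1 from 8.66, 8.47 and 8.35 to 7.82, 7.91 and 7.98 (log2 -0.59, SE 0.1, adjusted p = 0.000136). PFKFB2, a heart-type enzyme of fructose 2,6-bisphosphate, fell while PFKFB4, its relative, rose. PFKFB2 went from 7.95, 7.89 and 7.83 to 6.95, 7.33 and 7.44 (log2 -0.65, SE 0.14, adjusted p = 0.0025). Only 1 of its 2 probes passed by itself: A_33_P3300635 changed by -0.76 (SE 0.16, adjusted p = 0.0025 over all probes) and A_24_P413669 by -0.54 (SE 0.31, 0.31). DLAT, the acetyltransferase core of pyruvate dehydrogenase, went from 8.53, 8.66 and 8.47 to 7.79, 7.9 and 8 (log2 -0.66, SE 0.1, adjusted p = 0.000119), and PDHB, its partner, changed by -0.35 (SE 0.09, adjusted p = 0.00693). PFKP, HK1, DLAT and PFKM passed under all 17 alternatives, and SLC16A1 and SLC2A1 under 16. The calls of PDK2, TPI1, MPC2 and PFKFB4, between -0.3 and 0.45 on the log2 scale, each depended on single DMSO arrays. PFKFB4 was lost without replicate 1 of either day (adjusted p = 0.056 and 0.068), MPC2 without day 15 replicate 3 or day 8 replicate 2 (0.061 and 0.068), PDK2 without day 15 replicate 2 or 3 or day 8 replicate 1 or 2 (0.054 to 0.13), and TPI1 without day 15 replicate 3 or any 1 day 8 replicate (0.071 to 0.21). LDHB changed by -0.68 (adjusted p = 0.19), with the SE of 0.35 widened as described, and passed under 3 of 17 alternatives: with slides 2 and 3 only (0.034), with the brightest probe (0.021) and with only the groups compared (0.029). Probe A_23_P53476 changed by -0.52 (adjusted p = 0.042 over all probes) and probe A_33_P3231432 by -0.83 (0.14).

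**Figure D4:**
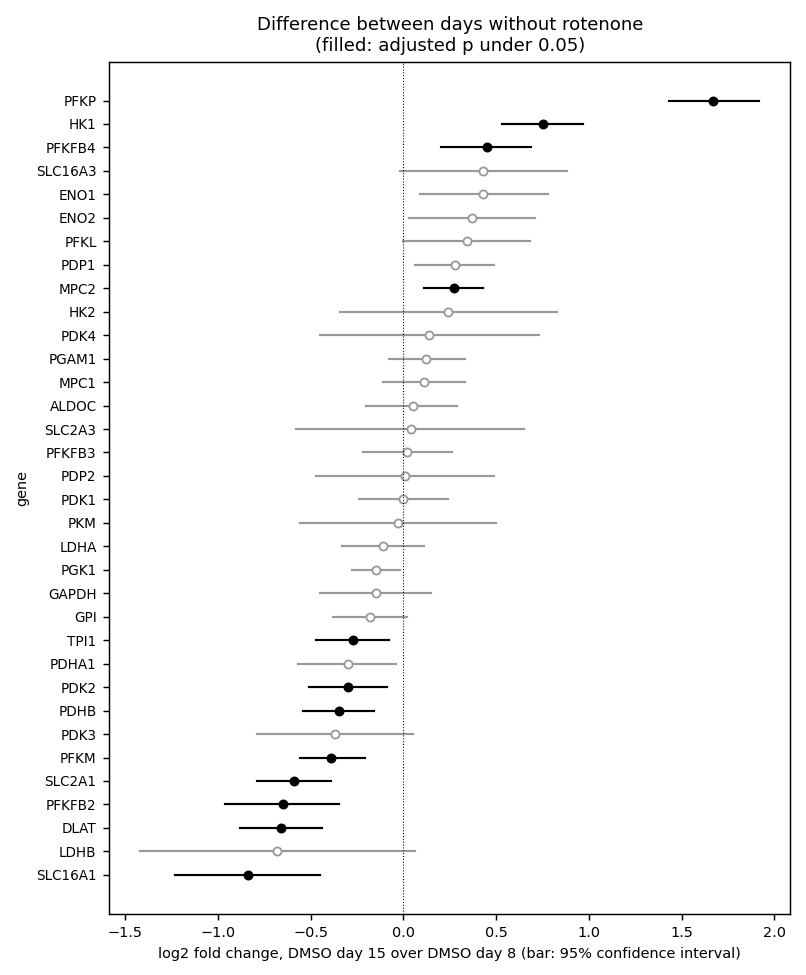
Log2 fold change between DMSO on day 15 and on day 8 for 34 of the 35 genes (PFKFB1 left out), ordered by size, with 95% confidence intervals from limma. Filled black points mark the 12 genes with an adjusted p under 0.05, 4 above 0 and 8 below, from SLC16A1 at -0.84 to PFKP at 1.67.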

How the data were processed

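The members and all lists used here were chosen with earlier results of these data known. The authors deposited scanner output for 24 one-colour Agilent SurePrint G3 arrays, 3 wells per group, with the median intensity and local background of each spot (Feature Extraction 11.5.1.1 per the labels, 12.0.0.7 in the files of slide 2). They also deposited normalized log2 values (21733 probes, column medians of named genes between 6.65 and 6.86, correlation of 0.989 to 0.992 with the values used here), which served as an alternative and whose exact scaling is not given in the sources used here.

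Following the study's methods, intensities were corrected with normexp (offset 0), quantile normalized, and slide 1 was adjusted to slides 2 and 3 by parametric ComBat with groups as covariates, written for this purpose and checked on simulated data. Probes were kept if on 3 or more arrays their value exceeded, by a factor of 1.1, the 95th percentile of negative control spots, flagged values set missing, and 0 spots were saturated. Of 50599 probes, 30275 were named by accession through RefSeq (GRCh38.p14), and probes of a gene were averaged over 21239 genes. Groups were compared in 1 limma 3.58.1 fit of all arrays (R 4.3.3; 16 residual and 2.37 prior degrees of freedom, two-sided, Benjamini-Hochberg over all genes). Intensity over background and the number of arrays limit the precision. Arrays of the same replicate number deviated together before the batch correction (all 84 pairs had correlations of at least 0.171, median 0.458, against -0.354 for 168 other pairs), which is the slide, so the numbers pair the arrays. The main fit did not use this pairing, and the replicate block was an alternative. By rule, values per array were given for the genes called with rotenone and for the 6 largest called changes between DMSO days, and ranges for the rest. HK2, GAPDH, SLC16A3, LDHB, PFKM and the day 15 values of SLC2A1 were added after their values had been seen. Alternatives were other normalizations, filters, batch handling, probe rules and leaving out each array. Figures used matplotlib 3.10.9 under Python 3.11.15.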

Additional observations from a re-analysis of the deposited data

How the results depend on the processing

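The number of the 35 genes called was computed under 11 alternatives for each comparison, by leaving out each array in turn, and with each probe fitted by itself, which was chosen after seeing the data. With 100 nM on day 8 (4 genes) the count was 0 with slides 2 and 3 only and 2 with only the groups compared, and 3 to 4 without single arrays. With 50 nM for 24 h (7) it was 1 without batch correction, 2 with slides 2 and 3 only, 2 with only the groups compared, 3 with each probe by itself and 2 to 4 without single arrays. With 50 nM for 12 h (2) it was 0 without batch correction, with slides 2 and 3 only and with only the groups compared, 4 with the processed signal, normexp offset 50 or the authors' normalized table, and 1 to 2 without single arrays (1 without DMSO replicate 2 or 12 h replicate 2). Between 24 h and 12 h (1) it was 2 with the replicate block or offset 50, 0 without batch correction, with slides 2 and 3 only, with only the groups compared or with each probe by itself, and 0 to 1 without single arrays. Between DMSO days (12) it was 6 without batch correction, 5 with slides 2 and 3 only and 9 to 11 without single arrays. For the interaction (0) it was 1 with the processed signal or offset 50 and 3 with the authors' table. The replicate block in place of ComBat gave 4 genes with 100 nM, 7 with 50 nM for 24 h, 3 with 50 nM for 12 h and 15 between DMSO days. With it, PDP1 was lost and SLC16A3 gained at 50 nM for 24 h, PDK2 gained at 12 h, PDHA1 gained between the times, and ENO1, ENO2 and PDHA1 gained between DMSO days. Slide 1 was the brightest slide, and the cause of the losses without it, beyond fewer arrays, was not tested. Without batch correction the fold changes were nearly the same, as the 8 groups were spread evenly over the slides, and the spread was wider. Scaling the processed signal moved the median of all genes between DMSO days from -0.04 to 0.11, and the 75th percentile moved that of the interaction from -0.01 to 0.14. No call of a single gene reversed its direction under any of these alternatives. PFKFB1 and 1 HK2 probe lay near background, which limits what their values can show.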
